A study of Mus musculus with 6 samples.

Results

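The platelet-derived growth factor (PDGF) family was followed in mouse embryonic fibroblasts with and without PME-1. It comprised 7 genes chosen by symbol: the ligand genes Pdgfa, Pdgfb, Pdgfc and Pdgfd, the receptor genes Pdgfra and Pdgfrb, and the receptor-like gene Pdgfrl. All 7 were among the 53762 gene symbols counted, had reads in each of the 6 libraries and passed the filter on low counts. The cells were immortalized fibroblasts from embryos, kept in high-glucose DMEM with 10% fetal bovine serum and antibiotics and collected 24 hours after seeding. The titles give 3 wild-type (WT) libraries and 3 PME-1 knockout (KO) libraries, and the genotype cells of KO 2 and KO 3 carry other numbers after PME. The sources used here do not say how the deletion was made or how many lines stand behind each genotype. PME-1, encoded by Ppme1, is the enzyme that takes the methyl group off the catalytic subunit of protein phosphatase 2A.

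PDGFs are secreted dimers that drive the growth and migration of fibroblasts, pericytes and smooth muscle cells. PDGF-A and PDGF-B are cut to their active form inside the cell, whereas PDGF-C and PDGF-D carry an extra domain that proteases remove outside it. They act through the receptor tyrosine kinases PDGFR-alpha and PDGFR-beta. PDGF-A and PDGF-C act mainly on alpha, PDGF-D mainly on beta, and PDGF-B on both. Serum holds PDGF, so receptors of cells grown in it meet ligand from outside the culture.

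The libraries held 34450993 to 44116310 counts. WT 1 and KO 1 stood apart from the other members of their groups: chi-square values divided by their degrees of freedom were 13.3 (WT 2 with WT 3) and 13.8 (KO 2 with KO 3), but 123 to 152 for the other pairs inside a group. Across the groups, WT 1 was nearer to KO 2 (97.5) and KO 3 (87.6) than to WT 2 (138) and WT 3 (123), and KO 1 was about as near to WT 2 (132) as to KO 3 (129). Results for the 7 genes are therefore given with and without these libraries. WT 1 and KO 1 were left out because they stood apart, so p-values without them cover a spread narrowed by that choice. In that setting 48.0% of all genes tested were called. Ppme1 fell 4.72-fold in KO, from 81.9 ± 4.22 to 17.4 ± 2.14 CPM (the gene's share of the library's counts in the usual scaling, with TMM factors; mean ± SD, n = 3 per group here and below; adjusted p = 0.000563). Xist had 16003 to 18859 counts in WT and 4 to 12 in KO, and the Y-linked Ddx3y, Eif2s3y, Kdm5d and Uty had 0 in every WT library and 664 to 3061 in KO. Sex and genotype thus cannot be told apart in any comparison here. Of 12 fibroblast markers 11 were tested, Col1a1 and S100a4 fell and 9 did not pass, against 3.86% of all genes that fell. Neither fall was called without WT 2, WT 3, KO 2 or KO 3 (adjusted p = 0.0917 to 0.104 for Col1a1 and 0.138 to 0.171 for S100a4), and that of S100a4 was not called with library sizes alone or the stricter filter. Means in WT and KO were 5123 and 2598 CPM for Col1a1 (1.97-fold lower, adjusted p = 0.0209), 428 and 148 CPM for S100a4 (2.88-fold lower, adjusted p = 0.0425), 4179 and 4285 CPM for Fn1 and 3322 and 2922 CPM for Vim, while Fap reached at most 0.233 CPM in a library. Dcn, Thy1 and Lum were low, at 6.56, 2.31 and 0.24 CPM in WT and 30.3, 6.52 and 1.04 CPM in KO, and did not pass, although the groups did not overlap for Dcn and Thy1. The summed level of the list was 16064 to 22056 CPM in WT and 13042 to 15346 CPM in KO. The labels do not state whether replicates are separate cultures, and the p-values then cover only the spread among these libraries, which could be technical.

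The comparison of KO with WT asked how transcript levels differ without PME-1. Of the 7 genes, Pdgfb and Pdgfd rose and Pdgfc and Pdgfrb fell (edgeR quasi-likelihood test, adjusted p under 0.05 over all genes tested), and Pdgfa, Pdgfra and Pdgfrl did not pass. Over all 15223 genes tested 7.40% were called, 3.55% higher and 3.86% lower. The groups did not overlap for 5 of the 7 genes, all but Pdgfra and Pdgfrl, against 30.0% of all genes tested (14.6% higher and 15.4% lower). At an unadjusted p under 0.05, 6 of the 7 passed, all but Pdgfra, against 22.2% of all genes. DESeq2 called 5 of the 7, 2 higher and 3 lower, against 5.72% higher and 5.29% lower over all genes. With the replicate number as a block 0 of the 7 were called, against 0.0526% of all genes (0.0197% higher and 0.0328% lower). The ligands moved in both directions, whereas the receptor genes and Pdgfrl had lower means in KO.

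**Figure D1:**
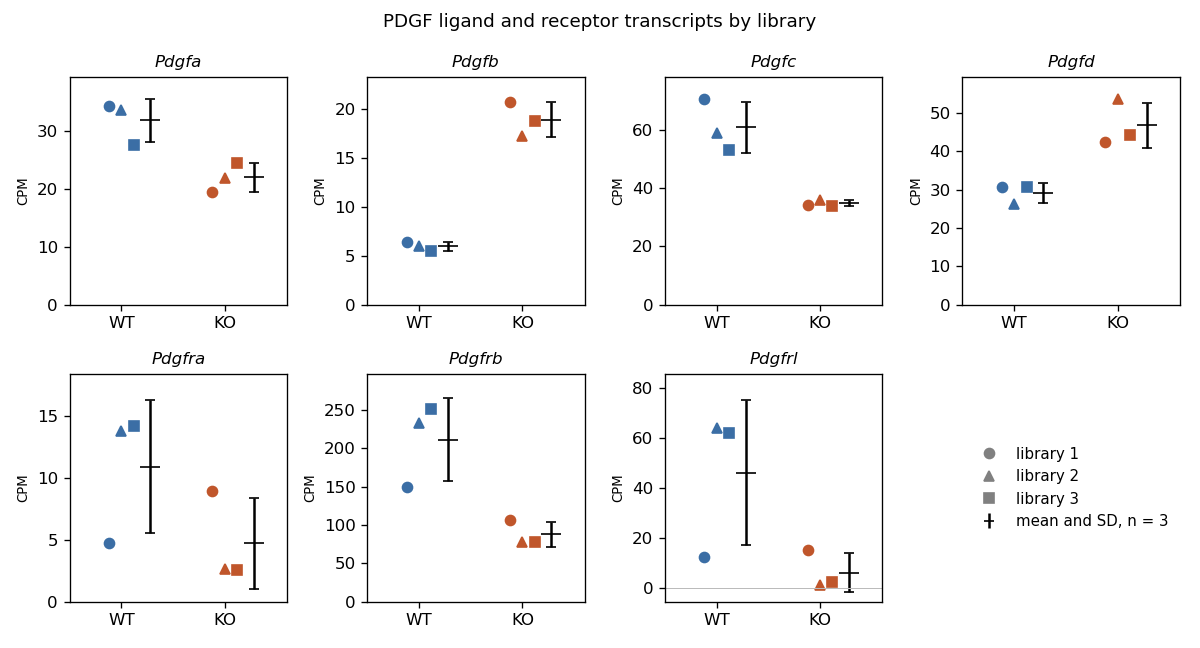
Level of each gene in every library, in CPM on linear axes, with WT in blue and KO in orange; marker shapes give the library number and the black bars the mean and SD of 3 libraries. The ligand genes separate the groups in every panel, while for Pdgfra and Pdgfrl library WT 1 lies below KO 1.

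Pdgfb encodes PDGF-B, the ligand that binds both receptors, and is a minus-strand gene of chromosome 15, from 79995874 to 80014977 (GENCODE M21, GRCm38). It was at 6.44, 5.96 and 5.44 CPM in WT 1 to 3 and at 20.8, 17.2 and 18.7 CPM in KO 1 to 3. Every KO library was thus above every WT library by far more than the spread within a group. The rise was 3.18-fold (log2 fold change 1.67, SE 0.16, adjusted p = 0.00253). It was called whichever library was left out (3.02-fold to 3.35-fold) and was 3.15-fold without WT 1 and KO 1 (adjusted p = 4.13e-06).

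Pdgfd encodes PDGF-D, the ligand mainly of the beta receptor, and lies on chromosome 9 from 6168584 to 6378850 on the plus strand. Its levels were 30.7, 26.3 and 30.7 CPM in WT and 42.5, 53.6 and 44.2 CPM in KO. The groups did not overlap, and the highest library was KO 2. The rise was 1.6-fold (log2 fold change 0.68, SE 0.14, adjusted p = 0.0323). It was not called when WT 2, WT 3, KO 2 or KO 3 was left out (adjusted p = 0.0958 to 0.14), although the log2 fold change stayed between 0.58 and 0.74. Without WT 1 and KO 1 it was 1.72-fold higher (adjusted p = 0.000193).

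Pdgfc encodes PDGF-C, the extracellularly activated ligand of the alpha receptor, and lies on chromosome 3 from 81036416 to 81214040 on the plus strand. It was at 70.5, 59.0 and 53.3 CPM in WT and at 34.4, 36.1 and 34 CPM in KO. The KO libraries were close together, the highest being 1.06 times the lowest, against 1.32 times in WT. Pdgfc fell 1.75-fold (log2 fold change -0.81, SE 0.13, adjusted p = 0.016). The call was lost without WT 2, KO 2 or KO 3 (adjusted p = 0.0674 to 0.0912), and without WT 1 and KO 1 the gene was 1.6-fold lower (adjusted p = 5.85e-05).

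Pdgfa encodes PDGF-A, the ligand of the alpha receptor, and is a minus-strand gene of chromosome 5, from 138976014 to 138997370. Its levels were 34.3, 33.5 and 27.5 CPM in WT and 19.4, 21.9 and 24.4 CPM in KO. Each KO library was below each WT library, but the gap between KO 3 and WT 3 was smaller than the range within either group. The log2 fold change of -0.54 (SE 0.15, 1.45-fold lower) did not pass (adjusted p = 0.0842), whereas DESeq2 called it (adjusted p = 0.0452). Without WT 1 and KO 1 it was 1.32-fold lower and passed (adjusted p = 0.0183). An antisense gene, 6330403L08Rik, overlaps the start of Pdgfa from 138995056 to 139000577 on the plus strand. It was at 15.2, 15.7 and 16.7 CPM in WT and 9.24, 7.65 and 6.29 CPM in KO, and fell 2.05-fold (adjusted p = 0.0232). The strand setting of the counting is not known, so reads of Pdgfa and of this antisense gene may not be cleanly divided. The other genes that overlap a member held 0 to 15 counts over all libraries.

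The region before a RefSeq start of Pdgfa, Pdgfc and Pdgfd is shown because Pdgfa and Pdgfc were both lower in KO and Pdgfd was higher, which lets the sequences of ligand genes with like and unlike values be set side by side. The sequences are RefSeq's on GRCm38.p6, 5′ to 3′ on the strand of the gene, with each CpG (the letters CG) in capitals. Pdgfa is chr5:138995038-138995194 on the minus strand and leaves out bases that lie in a GENCODE exon of Pdgfa. From 138995056 to 138995194 this stretch lies in the exon of the antisense gene 6330403L08Rik on the other strand. Pdgfc is chr3:81036166-81036415 and Pdgfd is chr9:6168236-6168485, both on the plus strand.
Pdgfa: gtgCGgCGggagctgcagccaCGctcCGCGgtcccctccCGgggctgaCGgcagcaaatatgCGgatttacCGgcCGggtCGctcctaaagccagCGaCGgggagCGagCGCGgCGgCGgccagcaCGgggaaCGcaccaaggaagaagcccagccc
Pdgfc: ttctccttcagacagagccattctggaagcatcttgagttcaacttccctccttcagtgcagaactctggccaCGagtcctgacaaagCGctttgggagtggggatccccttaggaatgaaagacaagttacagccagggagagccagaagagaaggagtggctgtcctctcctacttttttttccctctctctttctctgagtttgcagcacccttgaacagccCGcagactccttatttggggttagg
Pdgfd: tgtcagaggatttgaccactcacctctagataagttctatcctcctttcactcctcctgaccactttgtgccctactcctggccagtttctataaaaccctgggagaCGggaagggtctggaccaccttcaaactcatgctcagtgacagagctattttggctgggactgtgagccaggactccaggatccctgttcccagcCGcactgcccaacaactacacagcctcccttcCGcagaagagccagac
The Pdgfa stretch of 157 bases held 20 CpGs and the 250 bases of Pdgfc and of Pdgfd held 3 each. Of the Pdgfa starts in the table, the upstream one is shown, and it lies inside the GENCODE span of the gene, whose 5′ end is at 138997370, whereas the Pdgfc and Pdgfd windows lie before the GENCODE start. Over the full 250 bases before it, Pdgfa had 28 CpGs and 72.4% G and C. At least that many CpGs occurred in 7.61% of 32851 promoter windows of that length. Pdgfc had 50.8% G and C and Pdgfd 53.6%, against a median of 52.4% and 6 CpGs over all windows. Pdgfa, which was not called, and Pdgfc thus differed in CpG count, and Pdgfrb, which also fell, was not compared.

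Known promoter motifs were searched on both strands of the same 250 bases. The GC box (GGGCGG) matched 2 times before Pdgfa, outside the stretch shown, and not before Pdgfc, Pdgfd or Pdgfra; 32.7% of all windows hold it. The TATA letters (TATAAA) matched 1 time before Pdgfd and are in 12.4% of windows. The CCAAT box (CCAAT, in 33.9% of windows) and the EGR1 motif (GCGNGGGCG, in 4.70%, which can overlap a GC box) were in none of these windows. The table of promoters matched 4 of the 7 genes, and Pdgfb, Pdgfrb and Pdgfrl are not shown.

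Because genes differ in length, levels were compared between genes as CPM per kilobase of merged exons. The 4 ligand genes summed to 32.9 ± 2.98 CPM per kb in WT and 33.2 ± 1.91 in KO, a difference within the spread of either group. Their makeup differed. Pdgfc made up 36.3 ± 1.92% of the ligand sum in WT and 20.6 ± 0.75% in KO, and Pdgfa 31.0 ± 2.28% and 21.1 ± 2.23%. Pdgfd went the other way, from 28.3 ± 3.30% to 44.5 ± 3.24%, and so did Pdgfb, from 4.35 ± 0.10% to 13.7 ± 2.08%. The shares of no ligand overlapped between WT and KO libraries. The leading ligand transcript was Pdgfc in every WT library and Pdgfd in every KO library.

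**Figure D2:**
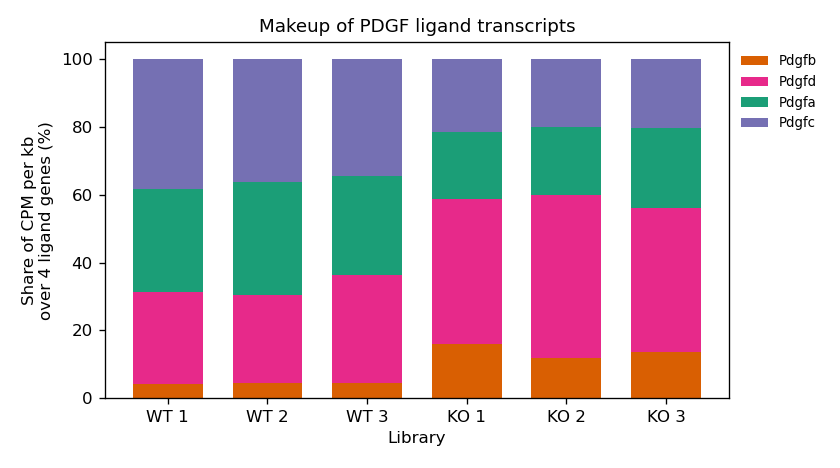
Share of each ligand gene in the summed CPM per kb of the 4 ligand genes, in percent, for each library. Pdgfd takes 25.9 to 32.1% of the sum in WT and 42.4 to 48.3% in KO.

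The ratio of Pdgfb to Pdgfa reads needs no library scaling. There were 18.8, 17.8 and 19.8 Pdgfb reads per 100 Pdgfa reads in WT 1 to 3 and 107, 78.6 and 76.7 in KO 1 to 3. The mean log2 ratio was -2.41 ± 0.08 in WT and -0.21 ± 0.27 in KO, a difference of 2.2. The exact 2-sided permutation p was 0.1, the smallest that 3 against 3 libraries allow, and 0.3 adjusted over the 3 ratios tested. Pdgfc to Pdgfa, the pair of alpha-receptor ligands, differed by -0.26 on the log2 scale (exact permutation p = 0.2, adjusted 0.3), with ratios of 2.06, 1.76 and 1.94 in WT and 1.77, 1.65 and 1.39 in KO that overlapped.

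Pdgfrb encodes the beta receptor, which marks pericytes and is carried by many fibroblasts, and lies on chromosome 18 from 61045150 to 61085061 on the plus strand. It was at 150, 233 and 251 CPM in WT 1 to 3 and 106, 78.3 and 78.2 CPM in KO 1 to 3. All KO libraries were below all WT libraries, and WT 1 and KO 1 were the pair that lay closest. Pdgfrb fell 2.41-fold (log2 fold change -1.27, SE 0.23, adjusted p = 0.0233). The call was lost when WT 2, WT 3, KO 2 or KO 3 was left out (adjusted p = 0.0916 to 0.112). Without WT 1 and KO 1 it was 3.09-fold lower (adjusted p = 3.37e-09).

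Pdgfra encodes the alpha receptor, the receptor for PDGF-A and PDGF-C, and lies on chromosome 5 from 75152292 to 75198215 on the plus strand. It was at 4.72, 13.8 and 14.2 CPM in WT and 8.95, 2.63 and 2.53 CPM in KO. The groups overlapped: WT 1 lay below KO 1, while WT 2 and WT 3 were the highest and KO 2 and KO 3 the lowest. The log2 fold change of -1.21 (SE 0.63) did not pass (adjusted p = 0.324), nor did it when any single library was left out, with 1.86-fold to 4.24-fold lower values. Without WT 1 and KO 1 the gene was 5.43-fold lower (log2 fold change -2.44, SE 0.18, adjusted p = 6.20e-07).

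Pdgfrl encodes a secreted protein that resembles the outer part of a PDGF receptor and has no kinase domain. It lies on chromosome 8 from 40926212 to 40990785 on the plus strand. Its levels were 12.6, 64.0 and 62.1 CPM in WT and 15.2, 1.22 and 2.5 CPM in KO. WT 1 and KO 1 lay side by side between a high pair and a low pair, and the spread within groups was among the widest of all genes: 95.3% of tested genes had a smaller range in WT and 98.7% in KO. The log2 fold change of -2.87 (SE 1.04) did not pass (adjusted p = 0.163). It was called without KO 1 (25.2-fold lower, adjusted p = 0.0344), and without both WT 1 and KO 1 it was 34.8-fold lower (adjusted p = 3.05e-05).

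**Figure D3:**
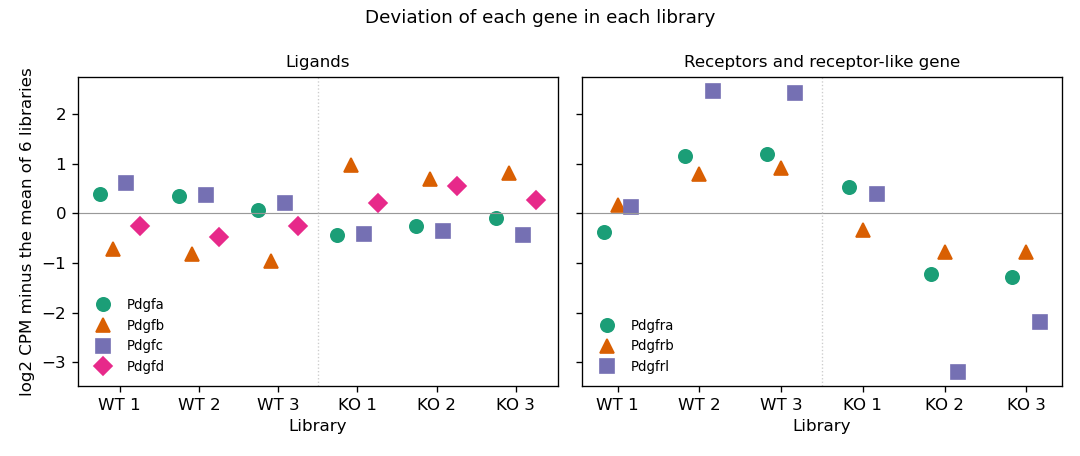
Deviation of each gene in each library from its mean over the 6 libraries, on the log2 CPM scale, with ligand genes on the left and the receptor and receptor-like genes on the right. In the right panel WT 1 and KO 1 lie between the other WT and the other KO libraries, with Pdgfra and Pdgfrl higher in KO 1 than in WT 1.

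Leaving out WT 1 and KO 1 thus moved Pdgfra and Pdgfrl the most. The ligand genes moved little between the settings, with log2 fold changes of -0.54 and -0.40 for Pdgfa, 1.67 and 1.65 for Pdgfb, -0.81 and -0.68 for Pdgfc and 0.68 and 0.78 for Pdgfd. Pdgfrb went from -1.27 to -1.63, and Pdgfra and Pdgfrl moved by more than 1 log2 unit. In the setting of 2 against 2, 5 of the 7 genes fell and 2 rose, but 48.0% of all genes tested were called there (23.3% higher and 24.6% lower). Genotype then cannot be told apart from any other difference of WT 2 and WT 3 from KO 2 and KO 3.

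**Figure D4:**
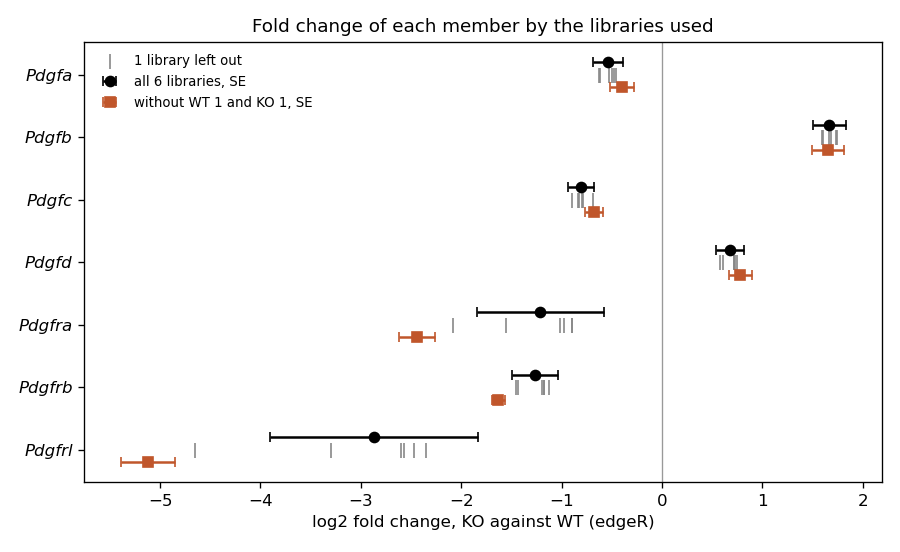
Log2 fold change of each gene in KO against WT, from edgeR, with all 6 libraries (black circles, SE), with 1 library left out at a time (grey ticks) and without WT 1 and KO 1 (orange squares, SE). The ligand genes keep their place, while Pdgfra goes from -1.21 to -2.44 and Pdgfrl from -2.87 to -5.12.

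Within the groups, the receptor and receptor-like genes deviated together. The correlation of their deviations from the group means over the 6 libraries was 0.96 for Pdgfra with Pdgfrb, 0.97 for Pdgfra with Pdgfrl and 0.91 for Pdgfrb with Pdgfrl. For all 3 genes WT 1 and KO 1 lay farthest from the rest of their groups, and these libraries also stood apart over all genes. The correlations were not taken for genes outside the family and are given as a description. With Pdgfrb, the correlation was -0.74 for Pdgfa, -0.15 for Pdgfb, -0.84 for Pdgfc and -0.46 for Pdgfd. Pdgfc varied little in KO, where its highest library was 1.06 times its lowest.

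In level per length, Pdgfrb was by far the higher of the receptor genes. It was at 38.5 ± 9.81 CPM per kb in WT and 16.0 ± 2.97 in KO, against 1.09 ± 0.54 and 0.47 ± 0.37 for Pdgfra. Pdgfrb thus made up 97.4 ± 0.80% of the receptor sum in WT and 97.4 ± 1.52% in KO. There were 4.91 ± 1.54 Pdgfra reads per 100 Pdgfrb reads in WT and 5.0 ± 2.95 in KO, a log2 difference of -0.07 (exact permutation p = 1). The ratio was lowest in WT 1 among the WT libraries (3.14) and highest in KO 1 over all libraries (8.41), and without these libraries the log2 difference was -0.81. The receptor sum was 39.6 ± 10.3 CPM per kb in WT and 16.5 ± 3.34 in KO, whereas the ligand sums lay within each other's spread.

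The order of levels per kilobase in WT was Pdgfrb, Pdgfrl, Pdgfc, Pdgfa, Pdgfd, Pdgfb and Pdgfra. Pdgfrl at 14.8 ± 9.31 CPM per kb, Pdgfc at 12 ± 1.73, Pdgfa at 10.2 ± 1.20 and Pdgfd at 9.26 ± 0.81 each overlapped the next in that order, but every WT library had Pdgfc above the highest Pdgfd value. Pdgfb at 1.43 ± 0.12 and Pdgfra also overlapped. In KO the order was Pdgfrb, Pdgfd, Pdgfa, Pdgfc, Pdgfb, Pdgfrl and Pdgfra. Pdgfd at 14.8 ± 1.90 lay within the spread of Pdgfrb, and Pdgfa at 7.02 ± 0.81 within that of Pdgfc at 6.84 ± 0.22. Pdgfb at 4.54 ± 0.43 was below both in every KO library and overlapped Pdgfrl at 2.02 ± 2.48, which overlapped Pdgfra.

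Over 9902 candidate genes whose mean reached 5 CPM, likeness to a called member was measured as the root mean square difference of centred log2 CPM over the 6 libraries. Nearest to Pdgfb were Ica1 (0.09), Mark1 (0.11) and Mlkl (0.12), the last an effector of necroptosis, and nearest to Pdgfd were Atp11a (0.07), Ccdc115 (0.09) and Tmem170b (0.09). Nearest to Pdgfc were Mtfmt (0.07), Tgfb1i1 (0.07) and Arpp19 (0.08), an inhibitor of protein phosphatase 2A. Pdgfrb was most like Marcks (0.06), S1pr1 (0.07), a receptor for sphingosine-1-phosphate, and Igsf8 (0.10). S1pr1 was at 31.2 ± 8.41 CPM in WT and 12.1 CPM on average in KO. All these genes were picked for like values over the libraries, and any link among them or to PME-1 was not tested.

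PDGFs belong to a wider family with the vascular endothelial growth factors (VEGFs), and the PDGF receptors to one with Kit, Csf1r and Flt3. Of 9 related ligand genes, Vegfd fell and 8 did not pass, against 3.86% of all genes that fell. The list median was -0.12 against 0.01 over all genes tested. Vegfd, a ligand of the VEGF receptor of lymphatic vessels and an X-linked gene, was at 18.6, 30.2 and 31.1 CPM in WT and 11.7, 8.68 and 6.93 CPM in KO. Its fall was 2.93-fold (adjusted p = 0.0231), not called without WT 2, WT 3, KO 2 or KO 3 (adjusted p = 0.0916 to 0.106). Vegfa, the main ligand for endothelial growth, was at 87.8 ± 4.93 and 114 ± 32.8 CPM, Vegfb at 43.2 ± 4.93 and 45.6 ± 3.23 and Vegfc at 4.14 ± 0.60 and 3.81 ± 0.45. Pgf was at 3.53 ± 1.25 and 1.45 ± 0.19 CPM, Il34 at 1.68 ± 0.84 and 3.63 ± 1.39 and Flt3l at 2.98 ± 0.95 and 2.76 ± 0.86. Kitl, the ligand of Kit, was at 75.5 ± 37.6 and 38.6 ± 11 CPM and Csf1, a macrophage growth factor, at 302 ± 130 and 249 ± 95.5 CPM. Pgf and Kitl were called lower without WT 1 (adjusted p = 0.0450 and 0.0365).

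Of 6 related receptor genes, 4 were tested and Flt4 rose, against 3.55% of all genes that rose. Flt4, which encodes the receptor for VEGF-C and VEGF-D, was at 8.79, 2.84 and 2.75 CPM in WT and 17, 33.2 and 33.6 CPM in KO. The rise was 5.84-fold (adjusted p = 0.0382), not called without WT 2, WT 3, KO 2 or KO 3 (adjusted p = 0.127 to 0.141), and its ligand gene Vegfd had moved the other way. Flt1 was at 14.6 ± 7.55 and 9.32 ± 2.77 CPM and Kdr at 0.98 ± 0.72 and 1.14 ± 0.13 CPM, neither called. Kit lies 377 kb from Pdgfra and had 0 counts in every library, which allows at most 0.0689 to 0.0881 CPM for 3 counts. Csf1r lies 15.5 kb from Pdgfrb and had means of 0.27 ± 0.01 CPM (WT) and 0.06 ± 0.10 CPM (KO). Kit and Csf1r were thus at or near 0 beside PDGF receptor genes that were read.

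Of 8 tested genes that process or bind PDGF, Plau and Lrp1 fell and the other 6 did not pass, against 3.86% of all genes that fell. Of 7 ligand-processing proteases 5 were tested, of which Plau fell and 4 were not called (list median -1.15). Plau, the urokinase that can activate PDGF-D, was at 60.1, 76.1 and 71.9 CPM in WT and 34.4, 28.5 and 27.7 CPM in KO, 2.30-fold lower (adjusted p = 0.00542, called whichever library was left out). Plat, which encodes the tissue plasminogen activator that activates PDGF-C, was at 210 ± 85.7 and 87.4 ± 20.5 CPM (adjusted p = 0.0816). Of 3 binding proteins and co-receptors Lrp1, a co-receptor of PDGFR-beta, was at 1081 ± 313 and 496 ± 67.9 CPM, 2.18-fold lower (adjusted p = 0.0336) and not called without WT 3, KO 1, KO 2 or KO 3 (adjusted p = 0.0505 to 0.146). Sparc and Nrp1 did not pass.

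Downstream of the receptors, of 34 signal transduction genes 1 rose and 2 fell, with a list median of -0.22. That share is near the 7.40% called over all genes, and 0 fell without WT 2, WT 3, KO 2 or KO 3. Grb10, an imprinted adaptor that binds receptor kinases, was at 232 ± 30.2 and 461 ± 39.2 CPM, 1.99-fold higher (adjusted p = 0.00894), and was not called without WT 2 or WT 3 (adjusted p = 0.0582 and 0.0622). Gab1, a docking protein, fell 2.05-fold and the kinase gene Map2k1 1.45-fold (adjusted p = 0.0169 and 0.0389), neither called without WT 2, WT 3, KO 2 or KO 3. Of 17 genes that attenuate receptor signals Spry4 fell and 16 did not pass, against 3.86% of all genes that fell. Spry4 was at 4.74 ± 0.91 and 1.85 ± 0.28 CPM, 2.56-fold lower (adjusted p = 0.0332), and the call was lost with any library left out (adjusted p = 0.0592 to 0.123).

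Early-response genes, which fibroblasts switch on soon after PDGF or serum, held 7 of the 9 rises. Of 24 genes 7 rose and 17 did not pass, with a list median of 0.30, against 3.55% of all genes that rose. The count of rises was 2 without WT 2, WT 3, KO 2 or KO 3, and 0 with the replicate block. The list was chosen with earlier results of these data known, so its share is given as a description. Whether these rises came from PDGF was not tested. The chemokine genes Ccl2 and Ccl7 rose 4.08-fold and 2.45-fold, the stress-induced factor Atf3 3.32-fold and the AP-1 gene Fosl2 1.54-fold. Ccl2 was at 21.1, 18.7 and 20.6 CPM in WT and 85.7, 81.4 and 79.5 CPM in KO, with no overlap (adjusted p = 0.000373). The other rises were those of Ier3, Cxcl1 and Nr4a1. Ccl2 and Atf3 were called whichever library was left out, and the other 5 were not called without WT 2, WT 3, KO 2 or KO 3, nor was Cxcl1 without WT 1 or Nr4a1 without KO 1. Fos, Egr1 and Myc did not pass: Fos was at 6.26 ± 2.33 and 5.79 ± 2.48 CPM, Egr1 at 236 ± 39.7 and 174 ± 13.5 CPM and Myc at 61.6 ± 40.0 and 71.2 ± 31.6 CPM. Over the 7 pathway lists of 100 genes, 96 were tested, 9 rose and 6 fell, and without WT 1 and KO 1 26 rose and 36 fell, where 23.3% of all genes rose and 24.6% fell. All genes of these lists named here with a call and a fold kept their direction and call without WT 1 and KO 1.

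**Figure D5:**
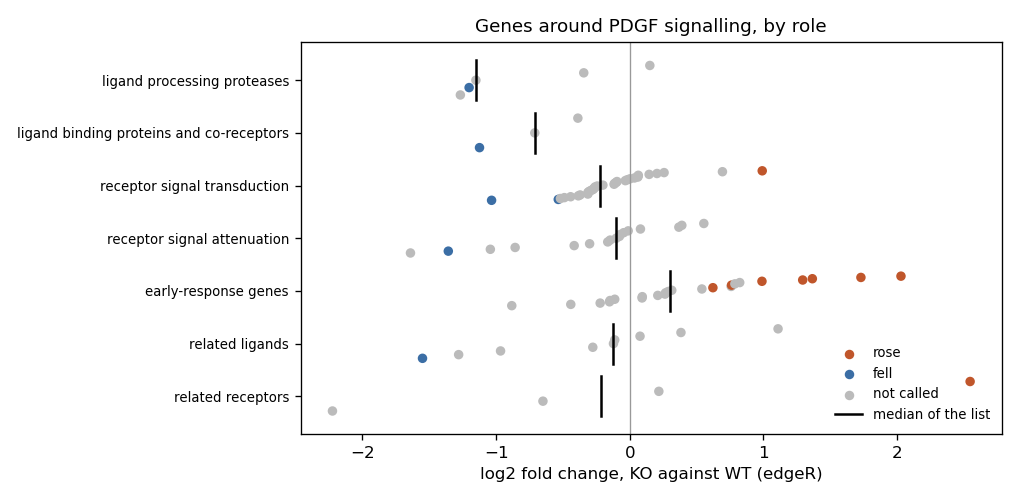
Log2 fold change in KO against WT (edgeR) of each tested gene in the lists around PDGF signalling, coloured by whether it rose, fell or was not called, with the median of each list as a black bar. The early-response list holds 7 of the 9 rises, and the lists were chosen with earlier results of these data known.

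Markers of cells that carry or release PDGFs were read beside these genes. Over all genes tested 7.40% were called, 3.55% higher and 3.86% lower. Of 12 pericyte and smooth muscle markers 8 were tested. Cspg4 rose 2.22-fold, Acta2 fell 7.14-fold and the other 6 did not pass. Their log2 fold changes were -1.16 for Mcam, -0.90 for Anpep, -0.51 for Notch3, -0.01 for Tagln, 0.13 for Des and 0.88 for Cnn1. Without WT 1 and KO 1, Tagln (1.18) and Cnn1 (1.77) were called higher and Mcam (-0.53), Anpep (-1.86) and Notch3 (-2.16) lower. Markers of this list thus went in both directions. Cspg4 was at 33.3 ± 5.19 and 74.0 ± 2.03 CPM. Acta2 was at 411 ± 280 and 57.6 ± 29.7 CPM, and its call was lost with any library left out (adjusted p = 0.0538 to 0.13). The pericyte genes Abcc9 and Kcnj8 had 0 counts in all libraries and Rgs5 was under 1 CPM. The summed level of that list was 464 to 1206 CPM in WT and 257 to 419 CPM in KO. Of 9 endothelial markers 2 were tested and Tek, a receptor of endothelial cells, rose 7.98-fold (adjusted p = 0.0241), from 0.19 ± 0.07 to 1.54 ± 0.69 CPM. Its call held only without WT 1 among the single libraries left out. In that list 3 markers had 0 counts everywhere and 8 had means under 1 CPM, with sums of 1.94 to 4.41 CPM in WT and 3.55 to 7.79 in KO. Of 9 macrophage and blood markers 4, Pf4 of platelets among them, had 0 counts everywhere, with sums of 12.5 to 17.3 CPM in WT and 12.5 to 20.3 in KO. Of 8 epithelial markers 5 were tested and 3 of them were not called. Krt18 rose 54.4-fold and Krt8 14.9-fold (edgeR, adjusted p = 0.000753 and 0.0109). Krt18 was called whichever library was left out and with the replicate block (adjusted p = 0.0292), Krt8 not without WT 2 or WT 3. The defining Epcam and Cdh1 had means under 1 CPM in both groups. Sums of the list were 8.24 to 31.8 CPM in WT and 126 to 144 in KO. Fewer cells of a kind and less RNA per cell cannot be told apart in bulk libraries, and the part of these markers in the PDGF values was not tested.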

How the data were processed

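The deposited values are unnormalized counts of reads for each gene symbol, with a table for every library, per the file headers. The submitters' processing notes list HISAT2 2.2.1 and Trim Galore 0.6.6, and a human genome build, while the gene symbols are those of mouse. Which program counted, on which strand and with which annotation is not given in the sources used here. Positions and exon lengths were therefore taken from GENCODE M21 (GRCm38), which held 92.9% of the symbols.

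The test was edgeR 4.0.16 under R 4.3.3 (filterByExpr, TMM factors, robust quasi-likelihood fit) with Benjamini-Hochberg adjustment over all tested genes and a threshold of 0.05. CPM uses TMM factors, and centred log2 values a prior count of 2. Alternatives were DESeq2 1.42.0, limma-voom (limma 3.58.1), other scaling factors and filters, the replicate number as a block, and libraries left out. Ratios used counts plus 0.5 and SciPy 1.17.1. A limit of 3 counts covers counting error only.

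The members and lists were chosen with earlier results of these data known. Named genes are the 7 members, Ppme1, related ligands and receptors with a mean of at least 1 CPM, up to 4 called genes of each other pathway list with the smallest adjusted p, and the 3 genes most like each called member. Plat, Sparc, Nrp1, Ier3, Cxcl1, Nr4a1, Fos, Egr1, Myc, 6330403L08Rik and the sex-linked and marker genes were named outside this rule.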

Additional observations from a re-analysis of the deposited data

How the results depend on the processing

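All 7 log2 fold changes kept their direction in every alternative fit. With DESeq2, Pdgfa was called (-0.53), 12 pathway genes fell, and 1016 genes rose and 940 fell over all genes. Without WT 1 and KO 1, Pdgfa (-0.40), Pdgfra (-2.44) and Pdgfrl (-5.12) passed, 5 members fell, 26 pathway genes rose and 36 fell, and 3605 genes rose and 3803 fell. With limma-voom, other scaling factors or filters no call of a member changed. Library sizes alone moved the share of higher calls from 47.9% to 57.1% over all genes. With 1 library left out, the log2 fold changes ranged from -0.63 to -0.46 for Pdgfa, 1.59 to 1.74 for Pdgfb, -0.90 to -0.68 for Pdgfc, 0.58 to 0.74 for Pdgfd, -2.08 to -0.89 for Pdgfra, -1.46 to -1.13 for Pdgfrb and -4.66 to -2.35 for Pdgfrl. In the same fits 1 to 2 members rose and 0 to 3 fell, 2 to 8 pathway genes rose and 1 to 10 fell, and 170 to 556 genes rose and 162 to 660 fell over all genes. The log2 ratio of Pdgfra to Pdgfrb ranged from -0.52 to 0.17 and reversed without WT 2 (0.10), WT 3 (0.06), KO 2 (0.14) or KO 3 (0.17). The cause of these changes was not tested.

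The replicate numbers did not pair the libraries: deviations of same-numbered WT and KO libraries correlated at -0.51, -0.31 and -0.22. With the replicate block 3 genes rose and 5 fell over all genes, 0 pathway genes rose or fell and 0 members rose or fell (edgeR; 21 of 96 pathway genes and 4 of 7 members at an unadjusted p under 0.05), with log2 fold changes of 1.67 for Pdgfb, -0.80 for Pdgfc, 0.68 for Pdgfd and -1.25 for Pdgfrb (adjusted p = 0.085, 0.18, 0.283 and 0.231). The lowest count of a member in a library was 52, for Pdgfrl in KO 2, so depth limits that value most.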

Other observations

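Csf1, the macrophage growth factor related to the PDGFs, had a log2 fold change of -0.28 with all libraries (adjusted p = 0.742) and of 0.42 without WT 1 and KO 1, where it was called higher (adjusted p = 0.000134). Its levels were 452, 219 and 234 CPM in WT 1 to 3 and 140, 294 and 314 CPM in KO 1 to 3, so the sign rested on the libraries numbered 1. Myc showed the same order: 108 CPM for WT 1, 34.8 CPM for KO 1, 38.3 and 38.7 CPM for WT 2 and WT 3, and 86.7 and 92.2 CPM for KO 2 and KO 3. The genes most like Pdgfra, which was not called, were Plppr3, Tmem119 and Capn6, with root mean square differences of 0.09, 0.12 and 0.16, and the gene most like Pdgfrl was Plxdc2 (0.44).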
